A study of Homo sapiens with 19 samples.

Results

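EP400-only peaks are the 8094 of 18048 EP400 peaks in U2OS cells (44.8%) that overlapped no other mock peak and lay outside dense EP400 windows. The peaks were chosen by the overlap of these lists and by the local number of EP400 peaks, with no other measurement. A peak was taken when it shared not even 1 bp with the mock lists of H3.3, H2AZ, Pol II, MED26, H3K18ac or H3K4me1. It also had to lie outside every fixed 1000000-bp window that held 30 or more EP400 peak starts, of which there were 79 among 2271 windows with an EP400 peak. The comparison group was the 6560 EP400 peaks (36.3%) outside dense windows that did overlap a mock peak, called shared EP400 peaks here. The dense windows held another 2199 EP400 peaks without a mock peak (12.2%) and 1195 with one (6.62%). "Only" refers to these 6 lists, since other factors and marks were not measured.

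U2OS is an established human osteosarcoma line, grown here in DMEM with serum. The study measured EP400 in 3 chromatin immunoprecipitations (ChIP) with 3 inputs, and its title places EP400 in the deposition of H3.3 at promoters and enhancers of genes being activated. Pol II, MED26, H3.3 and H2AZ were each measured after mock siRNA, directed against GFP, and after EP400 siRNA, with 1 library per antibody and condition. H3K18ac and H3K4me1 were measured after mock siRNA only, and RNA in 1 library per condition. Transfected cells were harvested at 72 hr, and the labels of the EP400 immunoprecipitations name no siRNA. All cells are of 1 line, and nothing in the labels says that the 3 EP400 immunoprecipitations came from separate cultures. They came as 1 pooled list of regions with no height or score, so no value below has a replicate error and no test was possible. Intervals are 95% Wilson intervals and cover counting error only.

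EP400 is an ATPase of the SNF2 family and a core subunit of the TIP60-EP400 complex, which joins chromatin remodelling to acetylation of histones. The complex exchanges histone variants into nucleosomes, H2A.Z and H3.3 among them, and is best known at active promoters and enhancers, where Pol II, the Mediator subunit MED26 and H3K18ac are also found. H3K4me1 is a mark of enhancers. An EP400 peak with none of these is therefore a site where EP400 was listed without overlap with the features it is usually described with. Such a feature could still lie close by, as given below.

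The sequence under these peaks was not analysed here. To show the kinds of promoter next to which EP400-only peaks lay, 6 promoters with such a peak within 250 bp of the gene's start are printed, from CpG-rich to CpG-free. Their EP400-only peaks lay from 1 bp (MORF4L1) to 9551 bp (SCG5) from a mock peak. The promoters were chosen after their values were seen. Each is the 250 bases before the RefSeq start in GRCh38.p14, read 5′ to 3′ on the gene's strand, with CpG in capitals. Peak positions are in hg19, so the distance of a peak is that to the end of the gene's locus in the RNA table, and the RefSeq start may differ from it.
MORF4L1 encodes a chromodomain subunit of the TIP60-EP400 complex, and its promoter (chr15:78872640-78872889, plus strand) held 28 CpG. The peak lay 123 bp outside its start.
MORF4L1: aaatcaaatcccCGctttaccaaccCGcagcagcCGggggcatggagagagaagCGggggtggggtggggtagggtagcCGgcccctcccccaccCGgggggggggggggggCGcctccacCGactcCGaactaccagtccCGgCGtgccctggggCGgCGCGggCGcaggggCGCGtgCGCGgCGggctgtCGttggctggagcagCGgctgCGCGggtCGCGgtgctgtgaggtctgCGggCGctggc
RAD54L2 encodes another SNF2-family ATPase, and its promoter (chr3:51538469-51538718, plus strand) held 27 CpG. The peak covered the start.
RAD54L2: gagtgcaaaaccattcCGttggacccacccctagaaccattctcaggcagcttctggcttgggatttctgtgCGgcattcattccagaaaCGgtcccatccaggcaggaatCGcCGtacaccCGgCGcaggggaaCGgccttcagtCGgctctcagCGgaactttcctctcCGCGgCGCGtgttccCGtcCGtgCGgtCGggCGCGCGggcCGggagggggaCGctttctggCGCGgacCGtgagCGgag
MCM3 encodes a subunit of the replicative helicase, and its promoter (chr6:52284743-52284992, minus strand) held 17 CpG. The peak lay 72 bp outside the start.
MCM3: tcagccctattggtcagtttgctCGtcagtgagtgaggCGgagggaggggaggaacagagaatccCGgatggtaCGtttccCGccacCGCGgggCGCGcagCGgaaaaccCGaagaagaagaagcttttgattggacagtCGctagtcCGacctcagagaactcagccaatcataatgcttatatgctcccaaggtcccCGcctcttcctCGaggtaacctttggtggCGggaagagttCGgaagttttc
SCG5 encodes a neuroendocrine secretory chaperone, and its promoter (chr15:32641460-32641709, plus strand) held 8 CpG. The peak lay 81 bp inside the start.
SCG5: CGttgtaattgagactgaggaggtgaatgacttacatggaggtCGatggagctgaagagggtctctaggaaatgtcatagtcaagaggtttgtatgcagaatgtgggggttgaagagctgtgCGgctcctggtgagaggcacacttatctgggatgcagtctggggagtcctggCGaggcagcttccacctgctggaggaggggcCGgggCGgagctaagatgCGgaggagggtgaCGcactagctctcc
TMPRSS11D encodes an airway serine protease, and its promoter (chr4:67884003-67884252, minus strand) held 1 CpG. The peak covered the start.
TMPRSS11D: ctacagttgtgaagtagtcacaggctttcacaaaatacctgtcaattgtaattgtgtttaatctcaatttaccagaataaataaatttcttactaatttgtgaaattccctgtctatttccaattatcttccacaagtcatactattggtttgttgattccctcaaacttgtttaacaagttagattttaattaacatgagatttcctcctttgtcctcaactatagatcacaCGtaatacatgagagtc
AMTN encodes amelotin, a protein of tooth enamel, and its promoter (chr4:70518319-70518568, plus strand) held 0 CpG. The peak covered the start.
AMTN: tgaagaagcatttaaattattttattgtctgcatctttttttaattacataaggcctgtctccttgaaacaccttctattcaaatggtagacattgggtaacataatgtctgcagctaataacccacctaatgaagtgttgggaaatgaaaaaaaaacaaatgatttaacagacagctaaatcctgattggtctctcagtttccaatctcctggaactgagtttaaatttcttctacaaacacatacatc

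Promoters near EP400-only peaks lay between those near shared peaks and all promoters in CpG content. Over the 300 bases that RefSeq's table gives (250 before to 50 after the start), 339 promoters with an EP400-only peak within 2 kb of the start had a median of 26 CpG. All 9813 promoters of 1-gene loci had a median of 21, and the 1530 with a shared peak and no EP400-only peak had 29. The 219 promoters with an EP400-only peak and no shared peak had 23. The GC box (GGGCGG, or CCGCCC on the other strand) occurred in 62.1% of those 219 (55.5 to 68.3%), in 76.1% of promoters with a shared peak (73.9 to 78.1%) and in 56.5% of all. The ETS motif (CCGGAAG or CTTCCGG) occurred in 15.5% (11.3 to 20.9%), 23.3% (21.2 to 25.5%) and 13.9%. The TATA box (TATAAA or TTTATA) occurred in 9.13% (5.99 to 13.7%), 5.56% (4.52 to 6.82%) and 11.1%. The CCAAT box (CCAAT or ATTGG), the MYC E-box (CACGTG) and the AP-1 motif (TGACTCA or TGAGTCA) were in 37.9%, 9.13% and 2.74% of the 219 promoters and in 37.8%, 8.49% and 4.09% of all. None of these motifs holds another, and a match is only a match of letters.

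The target of the siRNA was lower in the treated library. EP400 RNA stood at 10.04 FPKM (fragments scaled to transcript length and to library size) in the mock library, against 2.28 FPKM with EP400 siRNA. EP400 also carried an EP400-only peak on chromosome 12, from 132435851 to 132435950, 1386 bp inside the start of its own locus. Of cell type markers, 9 of 10 osteoblast and mesenchymal genes reached 1 FPKM in mock cells, led by VIM at 618 and COL1A1 at 376 FPKM, while COL1A2 stood at 0.0114 FPKM. Of epithelial markers 4 of 6 reached 1 FPKM, led by KRT18 at 519 and KRT8 at 369 FPKM. EPCAM stood at 0.680 and CDH1 at 0.0472 FPKM. The epithelial sum was 959 FPKM in mock cells and 443 with EP400 siRNA, and the osteoblast and mesenchymal sum 1266 and 1478. Of 5 blood, 3 endothelial and 2 liver markers 0 reached 1 FPKM, and of 3 neuronal markers 2 did. Their part in the results was not tested.

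EP400-only peaks were narrow. The list counts EP400 in steps of 50 bp, and 5680 EP400-only peaks (70.2%) were of the smallest width, 50 bp, while 2012 (24.9%) were 100 bp wide. Of shared peaks 42.3% were 50 bp wide. A width of 250 bp or more was reached by 42 EP400-only peaks (0.519%) and by 628 shared peaks (9.57%). In dense windows, EP400 peaks without a mock peak were 50 bp wide in 57.5% of cases. A wider region meets a mock peak more readily, so the choice of the peaks bears on this difference, and how much was not tested.

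**Figure D1:**
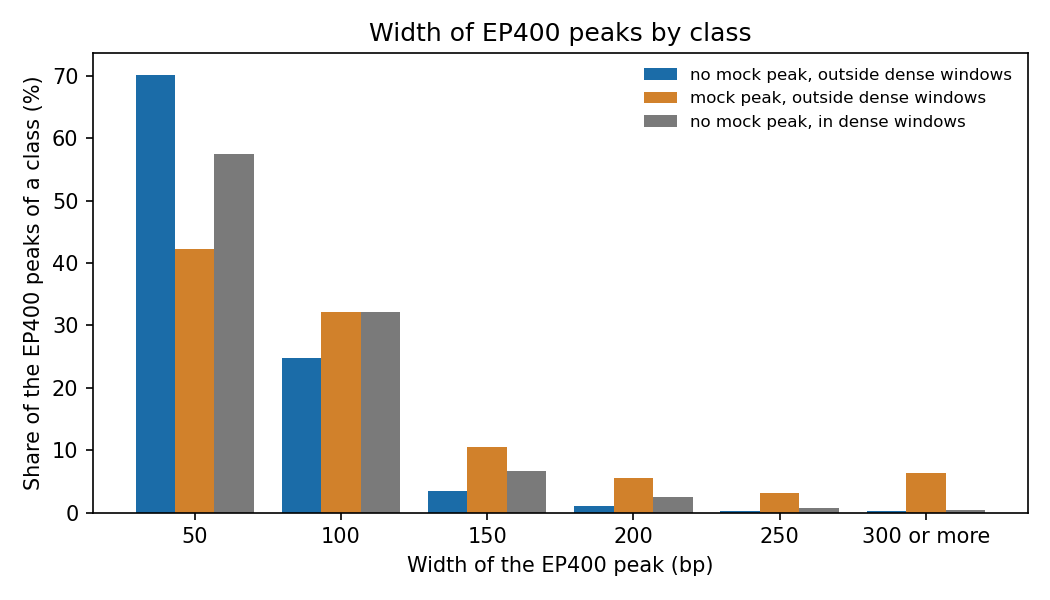
Share of EP400 peaks (vertical axis, percent of each class) by width (horizontal axis, bp) for EP400-only peaks (blue), shared peaks (orange) and peaks without a mock peak in dense windows (grey). The 50-bp class holds 70.2% of EP400-only peaks and 42.3% of shared peaks.

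The widest EP400-only peak stood well apart from the rest. It spanned 1050 bp on chromosome 19, from 44980701 to 44981750, inside the zinc finger gene ZNF180 and 2056 bp from that gene's far end. It lay 22051 bp from the nearest mock peak and overlapped an H3.3 peak after EP400 siRNA. The next were 500 bp on chromosome 2 (89842101 to 89842600) and 400 bp on chromosome 21 (9832201 to 9832600), both outside gene loci. The next peak of 400 bp lay on chromosome 7 (48070301 to 48070700), 1585 bp outside the start of SUN3, which encodes a nuclear envelope protein. Among 4 peaks of 350 bp were 1 in REEP3, which encodes a microtubule-binding protein of the endoplasmic reticulum (chromosome 10, 65303851 to 65304200), and 1 outside loci on chromosome 2 (89835051 to 89835400). Of the 19 EP400-only peaks of 300 bp or more, 9 lay outside gene loci. Whether reads were rightly placed at these wide peaks was not checked.

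Another 2 of those 19 wide peaks lay near the far ends of zinc finger genes, ZNF84 and ZNF268, both on chromosome 12 and picked out after their values were seen. ZNF84 and ZNF268 had their 300-bp peaks 4690 and 3097 bp before the far end. Over all such genes the pattern was not clear: 7 of 244 zinc finger loci (2.87%, 1.40 to 5.80%) had an EP400-only peak in their last 6 kb. Of all 8306 loci measured in the same way 156 did (1.88%, 1.61 to 2.19%). RNA of ZNF180 stood at 0.332 and 0.628 FPKM in mock and EP400 siRNA cells, too low for a ratio to be read.

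How far EP400-only peaks lay from a mock peak is fixed in part by their choice and is given as a description. The median distance was 3901 bp, with the middle 50% between 751 and 13551 bp. A mock peak touched 417 of them without overlapping, and 2345 (28.97%) had one within 1 kb. Another 3197 lay over 1 to 10 kb away, 2463 over 10 to 100 kb, and 89 more than 100 kb. The nearest mock peak was H2AZ for 37.3% of them, and H3.3, H3K4me1 and H3K18ac for 21.5%, 20.1% and 18.5%. Pol II was nearest for 8.06% and MED26 for 4.003%.

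Of the 6 peaks farthest from any mock peak, all but 1 lay outside gene loci. On the chromosome numbered 24 in the lists, read as Y, 1 peak (18270251 to 18270350) lay 4348251 bp and another (4656501 to 4656600) 939301 bp from a mock peak. The next were on chromosome 21 (14366801 to 14366850, 702451 bp) and on chromosome 14 (41563401 to 41563450, 463501 bp). The latter lay in the non-coding RNA locus LINC02315. The other 2 lay outside loci on X, 329101 and 309401 bp away. The chromosome read as Y held 18 EP400-only peaks but only 4 mock H3.3 peaks. Whether reads were rightly placed on it was not checked, so its 18 peaks, the 2 named here included, may not be EP400 sites. At the other edge of the rule, 5 windows had 29 EP400 starts and stayed in, and 5 had 30 and were left out. The 5 that stayed in lay on chromosomes 15 and 4 and held 20 to 23 EP400 peaks without a mock peak each.

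Most EP400-only peaks lay away from gene ends. A gene end is the 2 kb on either side of either end of a locus, and a locus joins all transcripts of the RNA table that overlap. Only 828 EP400-only peaks (10.2%, 9.59 to 10.9%) were at a gene end, beside 28.5% of all EP400 peaks and 56.3% of shared peaks (55.1 to 57.5%). Inside a locus and away from its ends lay 3697 (45.7%, 44.6 to 46.8%), beside 38.1% of all EP400 peaks. Outside loci lay 3569 (44.1%), beside 19.8% of shared peaks. Mock peaks are dense at gene ends, so EP400 peaks there were less likely to be taken by the rule. Of the 828 EP400-only peaks at gene ends, 604 had a mock peak within 1 kb.

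Around gene starts EP400-only peaks formed a pair of flanks. At 12739 loci of 1 gene with a known strand, 42 EP400-only peaks (0.519%) had their middle within 500 bp of a start, against 1612 shared peaks (24.6%). From 1 to 2 kb downstream there were 159 EP400-only peaks per kb, and from 1 to 2 kb upstream 102 per kb. In the 500 bp just downstream of the start there were 34 per kb, and 2 to 5 kb downstream 63 per kb. Shared peaks ran the other way, at 2006 per kb in the first 500 bp and 198 per kb from 1 to 2 kb. The dip at the start is set in part by the rule, since mock peaks cover starts. The higher density at 1 to 2 kb than at 2 to 5 kb was seen for both kinds of peak. At far ends 173 EP400-only peaks (2.14%) lay within 2 kb, against 417 (5.15%) at starts.

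**Figure D2:**
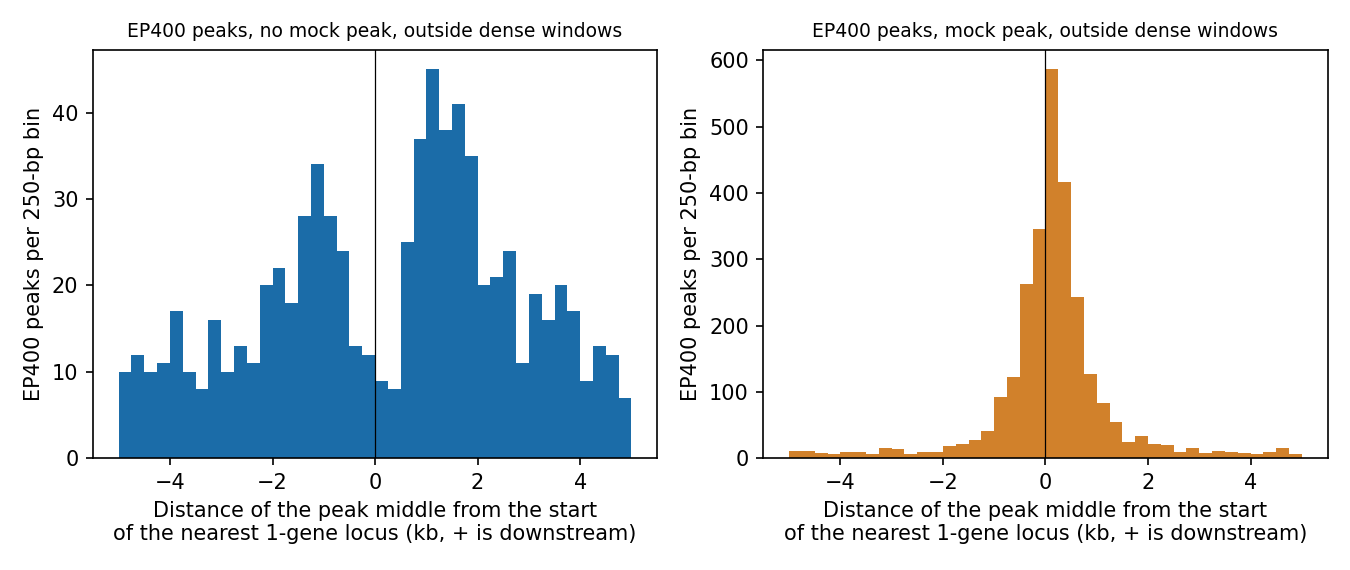
Number of EP400 peaks per 250-bp bin (vertical axes, on different scales) by distance of the peak middle from the nearest start of a 1-gene locus (horizontal axes, kb, downstream positive). EP400-only peaks (left) dip at the start and peak beyond 1 kb, at 45 in a bin, while shared peaks (right) reach 586 in the bin at the start.

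EP400-only peaks made up more of the EP400 peaks where genes were few. Outside dense windows they were 377 of 416 EP400 peaks (90.6%) in windows with 0 gene loci and 72.3% in windows with 1 to 5. The share was 57.9% at 6 to 10 loci, 41.5% at 11 to 20 and 24.2% above 20. Chromosome 4 held 948 of them, 11.7% of the total and 81.6% of its EP400 peaks outside dense windows. On gene-rich chromosomes 19, 20 and 17 the shares were 23.4%, 27.4% and 29.97%. Per Mb, EP400-only peaks ran against gene loci over 23 chromosomes (Spearman -0.49), and shared peaks with them (0.79). These are descriptions over chromosomes that share 1 list. Mock peaks, which set the classes, also follow genes.

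**Figure D3:**
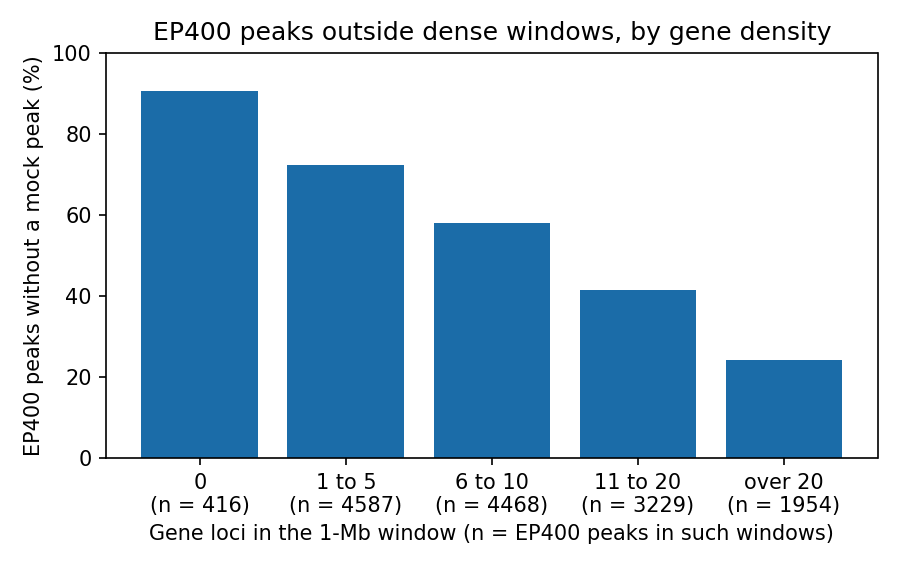
Share of EP400 peaks outside dense windows that had no mock peak (vertical axis, percent) by the number of gene loci in the 1-Mb window (horizontal axis, with the number of EP400 peaks). The share falls from 90.6% in windows with 0 loci to 24.2% above 20 loci.

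Single long loci held many EP400-only peaks. LINGO2, which encodes a neuronal leucine-rich repeat membrane protein, held 25 away from its ends, among 30 EP400 peaks in its 1265 kb on chromosome 9. The locus shared by TANC2, a synaptic scaffold gene, and MARCHF10 held 22 in 726 kb on chromosome 17. PRIM2, which encodes a subunit of DNA primase, held 20 in 334 kb on chromosome 6, the highest density of the 6 loci with most peaks at 5.99 per 100 kb. DST, a cytoskeletal linker gene, held 15, and FUT8, a fucosyltransferase gene, and RBFOX1, a neuronal splicing factor gene, held 14 each. Read placement and copy number at these loci were not checked, and the inputs were left aside. RNA at these loci ranged widely. PRIM2 stood at 4.97 FPKM in mock cells and 9.57 after EP400 siRNA and DST at 2.90 and 6.14. LINGO2 stood at 0.154 and 0.257 FPKM and RBFOX1 at 0.134 and 0.275.

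The density of EP400-only peaks away from ends was lowest in the longest loci. With 2 kb at each end of a locus left out of its length, loci under 20 kb held 3.19 per Mb, loci of 20 to 100 kb 3.43, loci of 100 to 500 kb 3.16 and loci of 500 kb or more 2.29. Of the 319 loci of 500 kb or more, 163 (51.1%) held at least 1. In a list of 36 synaptic, adhesion and other genes of very long loci, 18 (50%) had an EP400-only peak inside. That is near the 51.1% of loci of 500 kb or more, while the share of genes of all lengths was 12.7%. Among 75 protocadherin genes 40 did, but many of these share 1 locus.

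After EP400 siRNA, the 4 factors measured again overlapped few EP400-only peaks. The rule left out every peak with a mock peak of these factors, so the gap to all EP400 peaks is set in large part by the choice. Pol II overlapped 7 of 8094 (0.0865%, 0.0419 to 0.178%), beside 19.4% of all EP400 peaks. MED26 overlapped 8 (0.0988%, 0.0501 to 0.195%), beside 17.7%. H2AZ overlapped 18 (0.222%, 0.141 to 0.351%), beside 6.58%. H3.3 overlapped 189 (2.34%, 2.03 to 2.69%), beside 3.83%. Any of the 4 overlapped 218 (2.69%, 2.36 to 3.07%), beside 27.5%.

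H3.3 was the factor listed most often at EP400-only peaks after EP400 siRNA. Shared peaks without a mock peak of the same antibody are the nearer comparison, although they still carry another mock peak. H3.3 overlapped 99 of 5047 such peaks after siRNA (1.96%, 1.61 to 2.38%), an interval that overlaps that of EP400-only peaks. H2AZ overlapped 2.60% of 3886 (2.14 to 3.15%), MED26 138 of 3065 (4.50%, 3.82 to 5.30%) and Pol II 17 of 2484 (0.684%, 0.428 to 1.09%), each above the interval of EP400-only peaks. The H3.3 list after siRNA was the longest of the 4, at 41439 peaks, but covered less of the genome (0.295%) than the 20987 Pol II peaks (0.424%). Of the 189 H3.3 peaks at EP400-only peaks 24 reached a mock H3.3 peak beside them, near the 10.5% of the whole list that overlapped one. Their median width was 300 bp, against 100 bp for the list. A wider H3.3 peak meets any region more readily, so the overlap itself bears on this difference, and how much was not tested. H3.3 widths at shared peaks were not compared.

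At gene ends H3.3 after siRNA met EP400-only peaks more often than shared peaks. It overlapped 52 of 828 EP400-only peaks at gene ends (6.28%, 4.82 to 8.14%) and 72 of 3692 shared peaks there (1.95%, 1.55 to 2.45%). Of the 2927 shared peaks at gene ends without a mock H3.3 peak, it overlapped 18 (0.615%, 0.389 to 0.970%). EP400 peaks without a mock peak in dense windows had the highest share at gene ends, 29 of 131 (22.1%, 15.9 to 29.98%), and 8.004% over all places. Away from gene ends the order was the opposite, with shared peaks that had a mock H3.3 peak included. Inside loci the shares were 2.89% (2.40 to 3.49%) and 4.53% (3.61 to 5.68%), and outside loci 0.841% (0.589 to 1.20%) and 3.92% (2.99 to 5.11%). For H2AZ, Pol II and MED26 the choice kept mock peaks out of EP400-only peaks, and its part in the order by place was not tested. Over all places, shared peaks without a mock peak of the same antibody lay above EP400-only peaks for each of them.

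**Figure D4:**
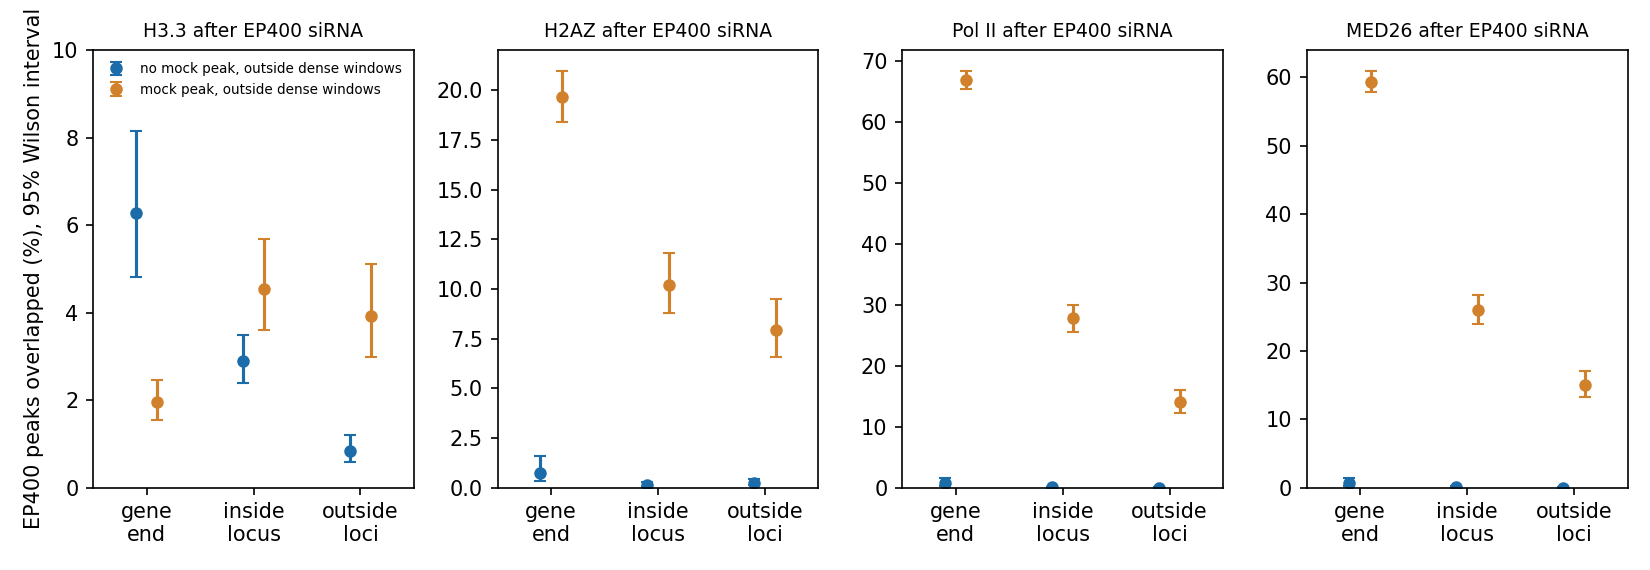
Share of EP400 peaks overlapped by a peak after EP400 siRNA (vertical axes, percent with 95% Wilson intervals, on different scales) at gene ends, inside and outside loci, for EP400-only peaks (blue) and shared peaks (orange). H3.3 at gene ends is the single panel position where EP400-only peaks lie above shared peaks, at 6.28% against 1.95%.

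Distance from the start moved with this difference. Within 500 bp of a start H3.3 overlapped 6 of 1612 shared peaks (0.372%) and 1 of 42 EP400-only peaks (2.38%, 0.422 to 12.3%). Over 500 to 1000 bp away it overlapped 7 of 114 EP400-only peaks (6.14%, 3.01 to 12.1%) and 15 of 585 shared peaks (2.56%, 1.56 to 4.19%). At 1 to 2 kb the shares were 6.51% (4.11 to 10.2%) and 4.26% (2.51 to 7.15%), and at 2 to 5 kb 6.82% (4.59 to 10.03%) and 6.18% (3.84 to 9.80%). The intervals of the 2 kinds of peak overlapped in every class of distance.

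The order at gene ends was the same in each class of local gene density. At gene ends in windows of up to 10 loci H3.3 overlapped 6.39% of EP400-only peaks and 1.73% of shared peaks. At 11 to 20 loci the shares were 7.05% (4.45 to 11.01%) and 1.57% (1.01 to 2.44%), and above 20 loci 4.51% and 2.70%, with overlapping intervals (2.08 to 9.49% and 1.87 to 3.87%). Without chromosome 4 the shares at gene ends were 6.36% and 1.98%. Width moved with it too: H3.3 overlapped 25 of 553 EP400-only peaks of 50 bp at gene ends (4.52%, 3.08 to 6.59%) and 11 of 58 that were 150 bp or wider (18.97%, 10.9 to 30.9%). Shared peaks of these widths at gene ends were overlapped in 1.87% and 1.82% of cases. Over all places, H3.3 at EP400-only peaks also differed with the distance to the nearest mock peak, which the rule sets in part and which goes with place (25.8% at gene ends within 1 kb, 4.47% over 1 to 10 kb). H3.3 overlapped 4.86% of EP400-only peaks with a mock peak within 1 kb, 1.69% at over 1 to 10 kb and 0.853% at over 10 to 100 kb. Beyond 100 kb it overlapped 0 of 89, which allows a share of up to 3.37% by the limit of 3 counts (Wilson upper limit 4.14%).

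The 11 wide EP400-only peaks at gene ends with H3.3 after siRNA lay at genes of several kinds, picked out here after their values were seen. They included JUN, an AP-1 transcription factor gene (150 bp, chromosome 1, 59246001 to 59246150, 313 bp beyond the far end). CDK7, the kinase of the general factor TFIIH, had its peak 672 bp outside the start (150 bp, chromosome 5, 68529801 to 68529950). Others lay at the splicing factor genes SFPQ, PHF5A and HNRNPA1, the proteasome gene PSMA5, the nuclear pore gene SEH1L, and BNIP2, USO1, ZC3H8 and the non-coding pair LINC00662 and LINC02987, whose values are given below. JUN, SFPQ, PSMA5 and CDK7 differed by less than 2-fold in RNA as deposited, but on rescaling CDK7 had a log2 ratio of 1.40. JUN stood at 51.7 FPKM in mock cells and 44.2 after EP400 siRNA, SFPQ at 54.7 and 62.2, PSMA5 at 46.9 and 52.6, and CDK7 at 5.81 and 9.61. USO1, a vesicle tethering gene, stood at 2.16 and 5.60 FPKM, a log2 ratio of 1.06.

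Few EP400-only peaks met more than 1 list after EP400 siRNA: 4 overlapped 2 lists and 0 overlapped 3 or more. The peak at MORF4L1, whose CpG-rich promoter is printed above (chromosome 15, 79164951 to 79165000), overlapped H2AZ and MED26 and touched a mock peak. A peak 835 bp outside the start of TMPRSS11D, the CpG-poor promoter printed above (chromosome 4, 68750551 to 68750650), overlapped H3.3 and H2AZ. So did peaks at the lysosomal transporter gene SLC17A5 (chromosome 6, 74362801 to 74362900) and in the microtubule gene MAP7 (chromosome 6, 136725301 to 136725400). TMPRSS11D was listed at 0 FPKM in mock cells and at 0.00982 with EP400 siRNA. Of the 7 peaks with Pol II, 6 were at gene ends, among them those at AKAP13, NT5M and UBE2V2, and all 7 lay within 1 kb of a mock peak.

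Genes with an EP400-only peak at an end were less highly expressed than those with other EP400 peaks. Of 1102 such genes with an RNA estimate, 704 (63.9%, 61.0 to 66.7%) had a mean of 1 FPKM or more over both libraries. For genes with another EP400 peak alone the share was 79.1%, and for genes without EP400 at an end 40.2%. The 704 genes had a median of 6.21 FPKM in mock cells, against 13.4 for 3503 genes with another EP400 peak alone and 6.01 for 7464 genes without one. From the lowest to the highest quintile of mock FPKM, 6.60% and 5.48% of genes had an EP400-only peak at an end. Other EP400 peaks alone climbed from 22.0% to 46.1%. Of the 704 genes, 313 had another EP400 peak at an end as well, with a median of 9.55 FPKM in mock cells. The other 391 had a median of 4.93 FPKM, below that of genes without EP400 at an end. The rule left out EP400 peaks with a mock peak of Pol II, MED26 or H3K18ac, so the lower RNA may follow in part from the choice, which was not tested. Of the 704 genes, 131 had an EP400-only peak at an end with no mock peak within 1 kb.

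A smaller share of these genes than of all genes stood at least 2-fold lower after EP400 siRNA, in 1 library per condition and with no test of the difference. The log2 ratio compares FPKM + 1 with EP400 siRNA to FPKM + 1 in mock cells, which understates differences of low genes. Of the 704 genes, 52 (7.39%) were at least 2-fold higher, beside 6.11% of all 11671 genes, and 79 (11.2%) at least 2-fold lower, beside 22.9%. Their median log2 ratio was 0.20, beside -0.20 for all genes. Genes with another EP400 peak alone had a median of -0.28 with 25.1% lower, and genes without EP400 at an end -0.21 with 23.03% lower. With and without another EP400 peak at an end, the genes with an EP400-only peak had the same median of 0.20. 

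**Figure D5:**
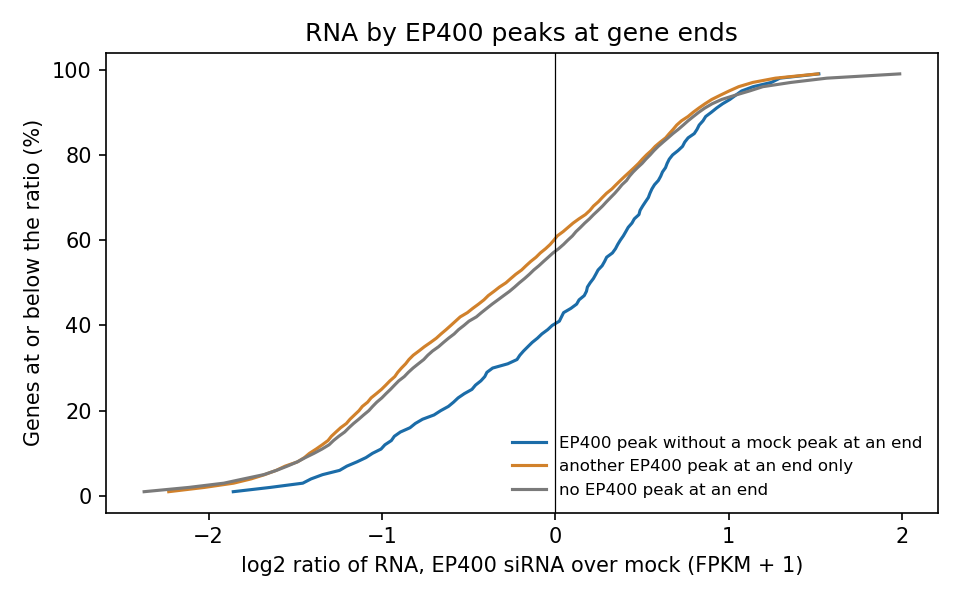
Cumulative share of genes (vertical axis, percent) by log2 ratio of RNA, EP400 siRNA over mock (horizontal axis), for 704 genes with an EP400-only peak at an end (blue), 3503 with another EP400 peak alone (orange) and 7464 with none (grey). The blue curve lies to the right over most of its range, with a median of 0.20 against -0.28 and -0.21.

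Scaling and local gene density both bore on these values. On median centring, 106 of the 704 genes (15.1%) were higher and 51 (7.24%) lower, beside 10.8% and 15.6% of all genes. On rescaling to equal sums (TPM), which moved the median gene by 0.68, 317 (45.0%) were higher and 20 (2.84%) lower, beside 31.5% and 5.97%. Among genes averaging at least 5 FPKM their median fell below 0, to -0.09, beside -0.57 for all 6978 such genes. In windows of 1 to 5 loci 7.69% of genes with an EP400-only peak were lower, beside 6.78% of all genes there, with medians of 0.38 and 0.32. At 6 to 10 loci 7.11% were lower and 7.11% higher, beside 9.26% and 8.91% of all genes there. Above 20 loci the shares were 22.2% and 45.2%, with medians of -0.52 and -0.93, and at 11 to 20 loci 9.46% and 21.05%. These genes lay in windows with a median of 11.5 loci, against 13 for all genes, and their longest transcripts had a median of 3012.5 nt, against 2785 nt. The part of transcript length was not tested.

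The 8 most highly expressed genes with an EP400-only peak at an end all stood lower as deposited after EP400 siRNA, and each but NDUFS6 had another EP400 peak there. Lower values were common among well expressed genes in general. All 6978 genes averaging 5 FPKM or more had a median log2 ratio of -0.57, and 32.0% of them were at least 2-fold lower. RPL37A, a ribosomal protein gene, had its peak 1920 bp outside the start and stood at 4140 FPKM in mock cells and 1978 after EP400 siRNA. RPLP0 stood at 2947 and 1305 FPKM, RPL27 at 2593 and 1722, and RPS13 at 1564 and 732. RACK1, a ribosome-bound scaffold, stood at 2483 and 1298 FPKM, and the tubulin gene TUBA1C at 2245 and 1281. OST4, of the oligosaccharyltransferase, shares its locus with AGBL5 and stood at 1016 and 412 FPKM, and the respiratory complex gene NDUFS6 at 807 and 354. Their log2 ratios ran from -1.30 (OST4) to -0.59 (RPL27), and on rescaling from -0.53 to 0.18, with RPL27 alone above 0. Ribosomal protein and tubulin genes have near-identical copies, so their estimates are uncertain.

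SCG5, whose promoter with 8 CpG is printed above, had the highest log2 ratio among genes of 5 FPKM or more with an EP400-only peak at an end. It stood at 0.974 FPKM in mock cells (the authors' limits 0.00603 to 1.98) and at 18.5 FPKM with EP400 siRNA (1.48 to 35.8), a log2 ratio of 3.31. Its peak (100 bp, chromosome 15, 32933951 to 32934050) lay 9551 bp from any mock peak, and no other EP400 peak was at its ends. The chemokine gene CCL5 stood at 7.80 and 47.7 FPKM, with a 50-bp peak over its upper end and 10101 bp from a mock peak. SLC20A1, a phosphate transporter gene, stood at 21.8 and 132 FPKM, and its peak, 650 bp inside the far end, was overlapped by H3.3 after EP400 siRNA. OASL, an interferon-induced gene, stood at 8.40 and 75.6 FPKM, the adhesion gene AMIGO2 at 11.7 and 46.7, and the threonyl-tRNA synthetase gene TARS1 at 15.6 and 46.7. All 6 also had a log2 ratio above 1 on centring and on rescaling.

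At a mean of 5 FPKM or more over both libraries, the 6 genes with the lowest log2 ratios were OLFML3, SOX12, LOXL1, MAGED1, PLA2G6 and RPL21. OLFML3, a secreted glycoprotein gene, stood at 46.9 FPKM in mock cells and 3.60 after EP400 siRNA, with its peak 863 bp outside the start (chromosome 1, 114521101 to 114521150). The transcription factor gene SOX12 stood at 65.6 and 11.5 FPKM, and LOXL1, a collagen and elastin crosslinking enzyme gene, at 108 and 20.7. MAGED1 had an EP400-only peak at each end of its locus, 1946 bp inside the start and 501 bp beyond the far end, and stood at 219.8 and 54.4 FPKM. PLA2G6, a phospholipase gene, stood at 9.08 and 1.78 FPKM. These 5 had log2 ratios from -3.38 to -1.86, and below -1 on centring and on rescaling too. The authors' limits, summed over transcripts, overlapped between the libraries at all 5. For MAGED1 they were 0 to 725 FPKM in mock cells and 0 to 185 with EP400 siRNA. RPL21 was listed at 0 after EP400 siRNA, beside 10.96 FPKM in mock cells, and is given no fold.

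Genes of EP400's own complex were among those with an EP400-only peak. In the list of 18 TIP60-EP400 complex genes 3 had one at an end, beside 4.60% of all 24172 genes with a locus, and 13 had another EP400 peak. These 3 were EP400, MORF4L1 and the subunit gene DMAP1, which stood at 61.3 and 26.5 FPKM. All 3 also had another EP400 peak at an end, and their EP400-only peaks lay 551, 1 and 351 bp from a mock peak. EP400 and DMAP1 were at least 2-fold lower, EP400 alone on centring and on rescaling, and MORF4L1 stood at 34.5 and 29.4 FPKM. On rescaling the log2 ratio of DMAP1 was -0.43 and that of MORF4L1 turned to 0.53. In the list of 12 H3.3 genes and chaperones 3 had one: the HIRA complex gene UBN1 (17.7 and 13.2 FPKM), ASF1A (1.49 and 2.21 FPKM) and H3-3A (4.01 and 0.880 FPKM). H3-3A, a gene for H3.3 itself, has near-identical copies and an uncertain estimate. Of 8 H2A.Z genes and remodelers 0 had one, and 6 had another EP400 peak.

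Over all genes with a locus 4.60% had an EP400-only peak at an end and 20.1% another EP400 peak, and 3 of the lists in this paragraph lay above both. Cytosolic ribosomal protein genes (88) had an EP400-only peak at an end at 7 genes (7.95%) and another EP400 peak at 68 (77.3%), and 4 of the 7 were at least 2-fold lower and 0 higher, but 1 lower (RPL21) and 0 higher on centring and on rescaling. Mitochondrial ribosomal protein genes had them in 7 and 31 of 77 cases (9.09% and 40.3%), with MRPS15 at 91.4 and 100.4 FPKM. DNA replication genes had them in 4 and 24 of 38 cases (10.5% and 63.2%), and 0 of the 4 passed 2-fold as deposited, but all 4 were higher on rescaling. MCM3 alone of the named genes of this list had EP400-only peaks at both ends, 72 bp outside the start and 939 bp inside the far end, and stood at 70.5 and 109 FPKM. RRM2, a ribonucleotide reductase gene, stood at 30.9 and 39.9 FPKM, and RFC4, of the clamp loader, at 16.0 and 19.9. Mitosis genes had an EP400-only peak in 1 of 29 cases (3.45%, TPX2, 34.7 and 39.1 FPKM) and another EP400 peak in 20.

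Other lists lay on both sides of the 4.60% of all genes with an EP400-only peak at an end. Olfactory receptor genes had an EP400-only peak in 2 of 390 cases (0.513%), zinc finger genes in 13 of 465 (2.80%), keratin genes in 2 of 53 (3.77%) and HOX genes in 0 of 39. Long non-coding RNA genes had one in 40 of 1130 cases (3.54%), beside 58 with another EP400 peak. LINC02987 and LINC00662 share an end with a 150-bp EP400-only peak that lay 11701 bp from a mock peak and was overlapped by H3.3 after siRNA. They stood at 26.8 and 10.2 FPKM (log2 ratio -1.31) and at 5.58 and 2.52 FPKM. Among 36 synaptic, adhesion and other genes of very long loci, 5 (13.9%) had an EP400-only peak at an end and 3 another EP400 peak. Interferon genes had an EP400-only peak in 2 of 24 cases (8.33%), OASL and OAS3 (7.61 and 14.2 FPKM), and matrix genes in 1 of 26 (3.85%). Solute carrier genes of the SLC series whose symbols carry an A had one in 14 of 346 cases (4.05%).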

How the data were processed

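ChIP and RNA of U2OS cells were deposited as lists of regions and 1 RNA table. Reads were processed with TopHat2 2.0.8, Bowtie 0.12.9 and Cuffdiff 2.0.2 on hg19, per the submitters' processing notes. Which peak caller and threshold were used is not given in the sources used here. Deposited lists hold chromosome, start and end, in multiples of 50 bp (EP400) or 100 bp (all others), and no score, so depth is unknown. Chromosomes 23 and 24 were read as X and Y. Inputs (4) were left aside.

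RNA levels are FPKM with limits, deposited by the authors for 48669 rows, per the file headers. Since FPKM are not counts, no count model was used. Symbols were found for 97.7% of rows in a RefSeq table of GRCh38.p14 used for names and, through its promoters, strand. Rows of 200 nt or more were summed per gene, 122 of 24198 genes were dropped for a failed estimate, and 11671 with a mean of 1 FPKM or more were analysed with a pseudocount of 1. Loci are clusters of overlapping transcripts (2950 of 20146 hold more than 1 gene). Overlapping, antisense and neighbouring genes cannot be told apart.

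Regions overlapped at 1 bp or more, and a distance of 1 bp means touching. Overlaps were checked on simulated regions. With 1 list or library per condition no test was made. The genes named were EP400, the 8 with highest mock FPKM, the 6 highest and 6 lowest log2 ratios at a mean of 5 FPKM or more, up to 3 per gene list and the 6 loci with most peaks. The regions named were the 6 widest, the 6 farthest from a mock peak and those in several lists after siRNA. Other names were chosen after their values were seen, which includes those of peaks with Pol II or H3.3 after siRNA and the printed promoters. The peaks, lists and rules were chosen with earlier results of these data known. Alternatives covered the mock distance, dense windows, peak width, gene end size, overlap, pseudocount, filter and scaling. Python 3.11.15, pandas 2.3.3, numpy 2.4.6 and scipy 1.17.1 were used.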

Additional observations from a re-analysis of the deposited data

How the results depend on the processing

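Of 87 recomputed values 39 stayed within 1.5 times a count or within the counting interval of a share or median, 47 moved and 1 changed sign. Counting a mock peak within 1 kb as well left 3.90% of EP400-only peaks at a gene end and 48.9% inside a locus. After EP400 siRNA 1.39%, 1.30%, 0.0696%, 0% and 0.0174% were overlapped by any list, H3.3, H2AZ, Pol II and MED26. This setting left 131 genes, 11 higher (8.40%, beside 6.11% of all genes) and 10 lower (7.63%, beside 22.9%). The shares of all genes were the same for the genes counted below in this paragraph. With no dense window left out the shares were 9.32% at a gene end, 47.7% inside a locus, 3.55% with H3.3 and 3.91% with any list. With windows of 15 or more starts left out there were 5138 peaks, 42.9% inside a locus, 1.46% with H3.3 and 2.005% with any list. Of 445 genes 52 were then lower (11.7%). The 2414 EP400-only peaks wider than 50 bp had a median width of 100 bp, with 11.4% at a gene end. After siRNA 3.89%, 4.18%, 0.0414% and 0.0414% of them were overlapped by H3.3, any list, Pol II and MED26. Of the 240 genes at which they lay, 20 were higher (8.33%) and 23 lower (9.58%). Gene ends of 1 kb gave 4.98% at an end, 48.9% inside, 26 higher and 34 lower genes, and gene ends of 5 kb gave 18.5%, 40.8%, 93 and 133, with a median log2 ratio of 0.14. Requiring 50% of the EP400 peak to be covered moved none of the 5 shares after siRNA beyond its interval.

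For RNA, a pseudocount of 0.1 gave 107 higher genes (15.2%, beside 11.3% of all genes), and a mean FPKM of 5 or more gave 33 (7.91%, beside 5.98%) and a median of -0.0883. With no filter the median was 0.0421. Median centring gave 106 higher (15.1%, beside 10.8% of all genes) and 51 lower genes (7.24%, beside 15.6%), with a median of 0.40. Rescaling (TPM) gave 317 (45.0%, beside 31.5%) and 20 (2.84%, beside 5.97%), with a median of 0.92. Centring within classes of local gene density, added after seeing the data, gave 95 and 45 (13.5% and 6.39%, beside 9.13% and 10.98% of all genes). In each of these 14 alternatives for RNA the median of the genes with an EP400-only peak was above that of all genes. Apart from the fewer peaks or genes that some settings leave, the cause of these shifts was not tested. No paired analysis was possible because the EP400 immunoprecipitations came as 1 pooled list and their inputs have no table here, and with 1 library per condition no replicate could be left out. Depth is unknown, which limits every share.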
